A study of Mus musculus with 4 samples.

Results

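The structural noncoding RNAs described here are 5 genes that are not miRNAs: the Y RNAs Rny1 and Rny3, the RNA subunits of the ribonucleases MRP (Rmrp) and P (Rpph1), and the telomerase RNA Terc. They were chosen by gene ID, all 5 had a row, and they were 5 of the 2976 rows of a table of levels in 4 small RNA libraries. The choice was made with their levels in these libraries known, so those levels are a description and no p-value is given for them. The libraries were made from flow-sorted peri-wolffian duct stroma of CD1 mouse embryos at E10.5 that carried Tbx18-Cre and the CAG-tdTomato reporter. The red reporter labels every cell with a history of Cre expression from the Tbx18 promoter, so it also labels cells that no longer express Tbx18. All 4 libraries belong to this 1 group and were described as wild type, so there is no contrast between conditions. Nothing in the labels ties a library to an embryo, a litter or a pool, and every SD is a spread over libraries that may be technical.

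Y RNAs are short RNA polymerase III transcripts that fold back on themselves, bind the protein Ro60 through their base-paired ends and bind La through a terminal run of U. They are known for roles in RNA quality control and in the start of DNA replication, and cells cut them into fragments that small RNA sequencing readily records. Rmrp and Rpph1 are the catalytic RNAs of related ribonucleoproteins that share most of their protein subunits. RNase MRP acts in ribosomal RNA maturation, and RNase P removes the 5′ leader of precursor tRNAs. Terc is the template and scaffold of telomerase, and unlike the others it is made by RNA polymerase II.

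The sequences of the Y RNA pair are shown because these 2 genes lie together and have closely related outer stems, yet gave very different levels. They are from GENCODE vM21 (GRCm38), at chr6:47788069-47788180 on the minus strand for Rny1 and chr6:47781624-47781725 on the plus strand for Rny3, written 5′ to 3′ with T for U. Capitals mark the strands of the outer stem that RNAfold predicted to be paired.
Rny1: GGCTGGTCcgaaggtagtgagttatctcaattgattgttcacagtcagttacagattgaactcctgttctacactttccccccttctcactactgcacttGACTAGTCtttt
Rny3: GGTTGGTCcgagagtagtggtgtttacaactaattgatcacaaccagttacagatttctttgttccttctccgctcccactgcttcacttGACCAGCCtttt
In each Y RNA the predicted outer stem had 8 base pairs and was followed by 4 unpaired T. Over a global alignment of 112 columns, 81 bases (72.3%) were identical. The longest run they share is CAGTTACAGATT, of 12 bases, from position 46 in Rny1 and 45 in Rny3. The genes are transcribed toward each other and lie 6343 bases apart. Neither overlaps an exon of another gene in GENCODE vM21. Rny1, but not Rny3, resembled other annotated genes: 13 genes matched it at 80% identity or more over at least 80% of its length, the closest at 92.7%, against 0 for Rny3. Of these 13, 0 are among the rows analysed here. Whether reads of such copies were listed under Rny1, or some Rny1 reads were left out, is unknown, since no source used here says how reads that fit several places were treated.

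The ribonuclease RNAs are shown because annotated exons of other genes overlap both. Rmrp is given at chr4:43492788-43493058 and the first 300 of the 319 bases of Rpph1 at chr14:50807468-50807767, both on the minus strand (GENCODE vM21, GRCm38), and capitals mark the bases that lie in an exon of the other gene.
Rmrp: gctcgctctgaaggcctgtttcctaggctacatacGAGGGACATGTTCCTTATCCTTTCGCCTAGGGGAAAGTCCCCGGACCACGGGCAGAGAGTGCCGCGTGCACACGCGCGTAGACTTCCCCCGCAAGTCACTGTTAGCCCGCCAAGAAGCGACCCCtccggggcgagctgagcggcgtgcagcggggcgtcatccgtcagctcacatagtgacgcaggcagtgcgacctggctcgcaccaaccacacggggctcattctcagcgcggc
Rpph1: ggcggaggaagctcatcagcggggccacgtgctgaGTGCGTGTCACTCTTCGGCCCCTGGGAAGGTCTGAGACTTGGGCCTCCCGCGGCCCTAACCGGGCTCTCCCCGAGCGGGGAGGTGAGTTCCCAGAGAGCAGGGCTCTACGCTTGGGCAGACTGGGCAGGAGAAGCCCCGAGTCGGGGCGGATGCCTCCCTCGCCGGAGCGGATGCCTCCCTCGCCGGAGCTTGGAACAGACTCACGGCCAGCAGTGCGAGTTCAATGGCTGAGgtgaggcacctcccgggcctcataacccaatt
The 124 capital bases of Rmrp (45.8% of its length) lie in an exon of Ccdc107 on the opposite strand. The 233 capital bases of Rpph1 (73.0%) lie in an exon of Ccnb1ip1 on the same strand. No source used here says whether the counting used strand or how it treated reads in 2 genes, so the levels of both RNAs are uncertain to that extent. The start of Terc is shown for its telomere template, at chr3:96414774-96414833 on the minus strand, which are the first 60 bases of the RefSeq gene. Its capitals mark the 9 bases, from position 2, that match the complement of the telomere repeat, a run of CCCTAA units.
Terc: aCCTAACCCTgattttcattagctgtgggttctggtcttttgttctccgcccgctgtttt
Another annotated gene, 1600017P15Rik, matched the GENCODE transcript of Terc at 81.1% identity over 408 aligned bases. It is not among the rows analysed here, and whether its reads were listed under Terc is unknown. In RefSeq (GRCm38.p6), Rny1 (gene ID 19872) is 111 nt, Rny3 (19874) 101 nt, Rmrp (19782) 275 nt, Rpph1 (85029) 325 nt and Terc (21748) 397 nt long. The sequencing reads of 75 bp were shorter than each of them, so fragments and whole RNAs cannot be told apart in these values.

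Levels are given in TPM, a unit that corrects reads for gene length and sets every library to the same sum. Read numbers were recovered from TPM and gene length, and each came out whole. Library 4 had the fewest recovered miRNA reads, 146255 against 883201 to 1087240 in the others. Its miRNA total in TPM was also the lowest, so miRNA reads alone do not measure its depth. The 5 RNAs summed to 28187 reads there, against 38624 to 49609 in the others. The table's rows made up 2.33% to 7.22% of a library's whole TPM sum, so each TPM also moves with genes not used here. The genes that mark the sorted stroma, such as Tbx18, and the protein partners Ro60, La, the RNase P and MRP subunits and Tert were not analysed here. Of miRNAs known from other cells, the epithelial list summed to 43.5 to 157 TPM, the blood list to 1.49 to 14.9 TPM and endothelial Mir126a to 251 to 528 TPM, against 331 to 2373 TPM for 4 mesenchymal miRNAs. The neural list summed to 36.4 to 2890 TPM, carried by Mir9-3 at 35.2 to 2861 TPM, and its other 5 rows reached at most 16.9 TPM.

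Rny1 was the most abundant of the 5 RNAs in every library. From library 1 to library 4 its level was 817, 1016, 1525 and 1588 TPM, and the mean was 1237 ± 379 TPM (SD, n = 4). Libraries 3 and 4 were the high ones, and the highest was 1.94 times the lowest. These values rest on 23199, 23184, 32459 and 19005 reads, so counting error is small beside the difference between libraries. Among all 2976 rows Rny1 ranked 14th, 17th, 9th and 3rd in libraries 1 to 4, and among rows that are not miRNAs only the snoRNA host gene Gas5 had a higher mean.

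Rny3, the second Y RNA, was at 204, 115, 195 and 236 TPM in libraries 1 to 4, or 188 ± 51.4 TPM (SD, n = 4), from 5277, 2395, 3779 and 2573 reads. Library 2 was low, and the other libraries were close to each other. Within each library Rny1 exceeded Rny3, by 4.00, 8.81, 7.82 and 6.72 times in TPM. The mean log2 ratio of (TPM + 1) was 2.71 ± 0.50 (SD, n = 4), with Rny1 higher in 4 of 4 libraries. Their ratio thus varied by 2.20 times between libraries, with the lowest value in library 1, where Rny1 was lowest.

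Rmrp, the RNase MRP RNA, was at 285, 222, 148 and 186 TPM in libraries 1 to 4, or 210 ± 58.1 TPM (SD, n = 4), from 20029, 12556, 7805 and 5523 reads. Library 1 was the highest and library 3 the lowest, an order unlike that of either Y RNA. Rpph1, the RNase P RNA, was at 12.8, 6.83, 11.6 and 30.4 TPM, or 15.4 ± 10.3 TPM (SD, n = 4), from 1063, 456, 721 and 1066 reads. Library 4 was the high one, 4.46 times the lowest. Rmrp exceeded Rpph1 by 22.3, 32.5, 12.8 and 6.12 times in libraries 1 to 4, and the mean log2 ratio was 3.84 ± 0.99 (SD, n = 4). The ratio of these RNAs, which form the cores of related enzymes, differed by 5.31 times between the libraries. Genes that resemble Rpph1 gave few reads: Rprl2 had 6, 1, 5 and 2 reads and Rprl1 had 2, 0, 1 and 1 reads in libraries 1 to 4. The closest of the 3 genes that resemble it, Rprl3 at 86.0% identity, was not analysed here.

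Terc was the lowest, at 0.404, 0.404, 0.539 and 0.467 TPM in libraries 1 to 4, or 0.454 ± 0.0641 TPM (SD, n = 4). It had 41, 33, 41 and 20 reads. The exact 95% Poisson intervals of these counts, which cover counting error only, span 0.290 to 0.548 TPM in library 1, 0.278 to 0.568 in library 2, 0.387 to 0.731 in library 3 and 0.285 to 0.722 in library 4. These intervals in TPM all overlap, which is not a test of a difference between libraries. Relative to the miRNA total, Terc was at 0.00285% in library 4. In libraries 1 to 3 it was at 0.000950%, 0.000618% and 0.000873%.

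**Figure D1:**
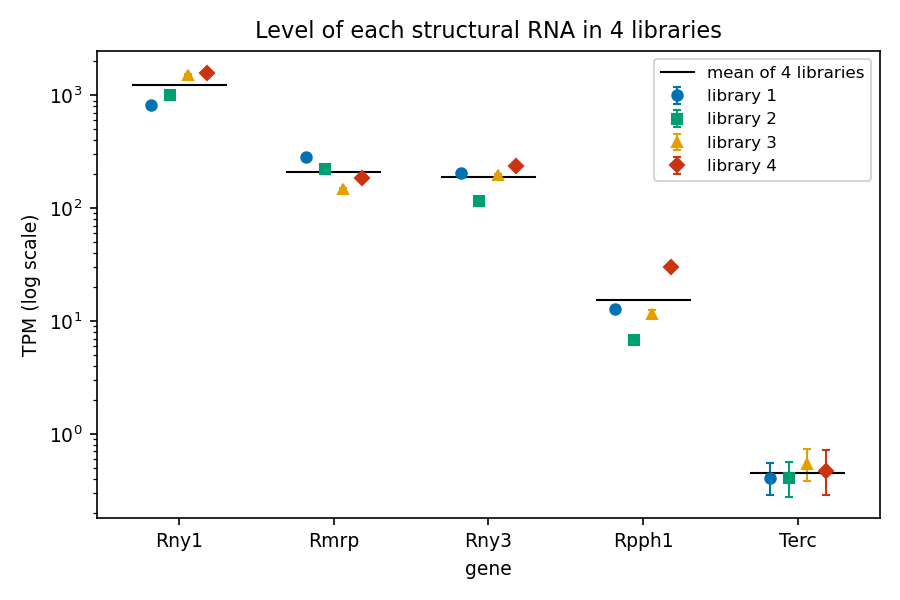
TPM on a log scale for the 5 structural RNAs in each of the 4 libraries (points, with exact 95% Poisson intervals of the recovered reads, mostly smaller than the point) and their mean (line). Rny1 lies between 817 and 1588 TPM, Rmrp and Rny3 overlap, and Terc stays below 1 TPM.

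By mean TPM the order was Rny1, Rmrp, Rny3, Rpph1 and Terc. Rny1 and Rmrp were set apart by a log2 ratio of 2.54 ± 0.84, Rny3 and Rpph1 by 3.67 ± 0.50, and Rpph1 and Terc by 3.31 ± 0.82 (SD, n = 4), each with the same sign in 4 of 4 libraries. Rmrp and Rny3 did not differ beyond their spread, with a log2 ratio of 0.17 ± 0.65 (SD, n = 4). Rmrp was the higher in libraries 1 and 2 and Rny3 in libraries 3 and 4, and without library 2 the mean ratio was -0.087. The ratio of Rpph1 to Terc depends on the pseudocount because Terc is below 1 TPM. Without a pseudocount it was 31.7, 16.9, 21.5 and 65.1 times in libraries 1 to 4. In reads, which longer RNAs collect more of, Rmrp was 3.80, 5.24, 2.07 and 2.15 times above Rny3.

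**Figure D2:**
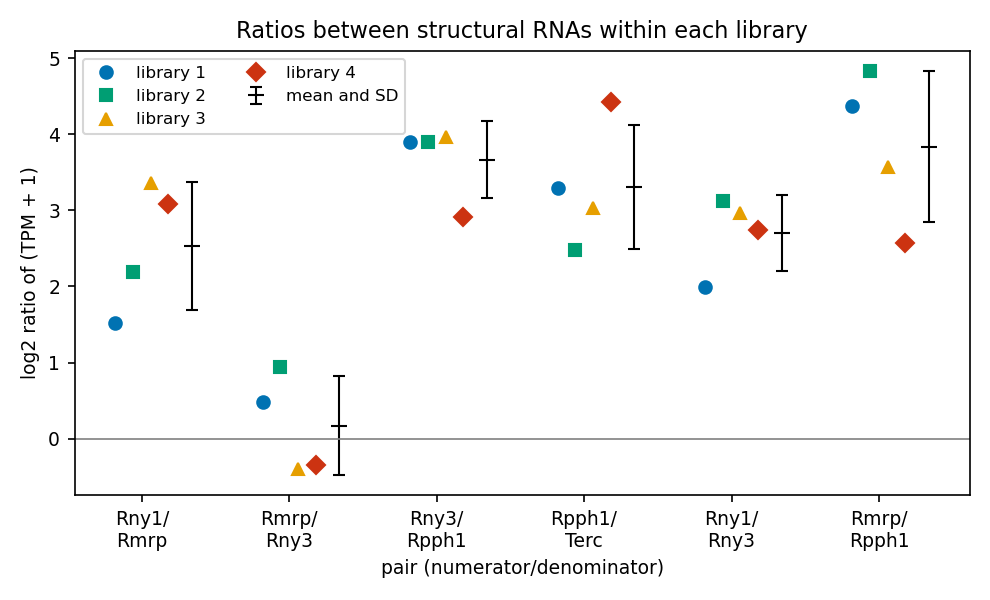
Log2 ratio of (TPM + 1) between pairs of the structural RNAs within each library (points), with the mean and SD over 4 libraries (black). Only Rmrp/Rny3 falls on both sides of 0, and library 4 has the lowest Rny3/Rpph1 and the highest Rpph1/Terc.

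A level of 1 TPM or more in every library was met by 4 of the 5 RNAs, and not by Terc. Over all rows 7.69% did so, over miRNA rows 33.1% and over the other rows 0.686%. The RNAs were chosen with their levels known, so nothing is read from this count. The median of their means was 188 TPM, beside 0.00137 TPM over all rows and 37.4 TPM over the miRNA rows that passed the same threshold.

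Against the miRNA total of the same library, the structural RNAs stood highest in library 4. Their summed TPM was 3.11%, 2.08%, 3.05% and 12.5% of the miRNA total in libraries 1 to 4, or 5.17% ± 4.88 (SD, n = 4) and 2.74% without library 4. Rny1 supplied 61.9%, 74.7%, 81.1% and 77.8% of their summed TPM. Each of the 5 RNAs had its highest value relative to miRNAs in library 4, as did 24 of the 68 miRNAs and 5 of the 5 other rows that averaged 100 TPM or more, Rny1, Rmrp and Rny3 among them. In TPM, 3 of the 5 RNAs were highest in library 4. The sum of the 5 RNAs itself was 1320, 1361, 1881 and 2042 TPM, while the miRNA total was 42494, 65478, 61707 and 16399 TPM. Over all 4 libraries the miRNA total thus varied more than the sum of the structural RNAs, but this rests on library 4. In libraries 1 to 3 the relative spans were similar, at 42494 to 65478 TPM for miRNAs and 1320 to 1881 TPM for the sum. Fewer cells of a type, less RNA per cell and a larger share of TPM in genes not used here cannot be told apart in these values.

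Rny1 was 1.92%, 1.55%, 2.47% and 9.68% of the miRNA total in libraries 1 to 4, with a mean of 3.91% ± 3.87 (SD, n = 4) and 1.98% without library 4. Rny3 was at 0.481%, 0.176%, 0.316% and 1.44%, with a mean of 0.604% ± 0.572 (SD, n = 4), or 0.324% without library 4. The value of Rmrp was 0.670%, 0.339%, 0.240% and 1.14%, with a mean of 0.596% ± 0.404 (SD, n = 4), or 0.416% without library 4. Library 4 stood above the mean of the other libraries by 4.89 times for Rny1, 4.44 for Rny3 and 2.73 for Rmrp. For Rpph1, at 0.0301%, 0.0104%, 0.0188% and 0.186%, this factor was 9.39, and the mean of 0.0612% ± 0.0833 (SD, n = 4) was 0.0198% without library 4. For Terc, whose mean was 0.00132% ± 0.00103 (SD, n = 4) and 0.000814% without library 4, it was 3.50, with 20 reads behind the library 4 value.

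The scaRNAs and Gas5 were also highest relative to miRNAs in library 4. Small Cajal body RNAs (scaRNAs), guides for the modification of spliceosomal RNAs, were detected in 9 of 9 rows, with a median of their means of 14.8 TPM. All 9 had their highest value relative to miRNAs in library 4, and their sum was 0.664%, 0.329%, 0.332% and 2.46% of the miRNA total, 5.56 times higher in library 4 than the mean of the others. Gas5 was at 12.0%, 7.57%, 11.5% and 25.9% of the miRNA total, with library 4 at 2.50 times the mean of the others. For all rows that are not miRNAs other than Gas5 and the 5 RNAs, summed, the factor was 4.79. This sum includes the scaRNAs, so it is not separate from theirs. The factor of 4.54 for the summed Y RNAs, Rmrp, Rpph1 and Terc lay among these values. Library 4 also had the lowest sum of the 4 mesenchymal miRNAs, at 331 TPM against 1444 to 2373 TPM in the others, and the lowest sum of the epithelial list, at 43.5 against 46.3 to 157 TPM. Relative to the miRNA total, library 4 was instead the highest for the epithelial list, at 0.265% against 0.0707% to 0.255%, and for Mir126a, which in TPM was lowest in library 4, at 1.53% against 0.659% to 0.856%. The sum of the mesenchymal list was lowest there on both scales, at 2.02% against 2.34% to 4.46%. On the percent scale the neural list was highest in library 3, at 4.68% against 0.488% in library 4. So was the blood list, at 0.0241% against 0.0214%. Not every gene followed its list's sum on the percent scale. Of the 4 highest epithelial rows, Mir200a, Mir200b and Mir200c were highest in library 4, but Mir205 was highest in library 3. The lower row Mir429 was also highest in library 3, at 0.00876% against 0.00750% in library 4. Of the mesenchymal miRNAs, Mir143 was lowest in library 3, at 0.907% against 1.20% in library 4, and the others were lowest in library 4. The part of cell makeup, RNA quality or depth in what sets library 4 apart was not tested.

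**Figure D3:**
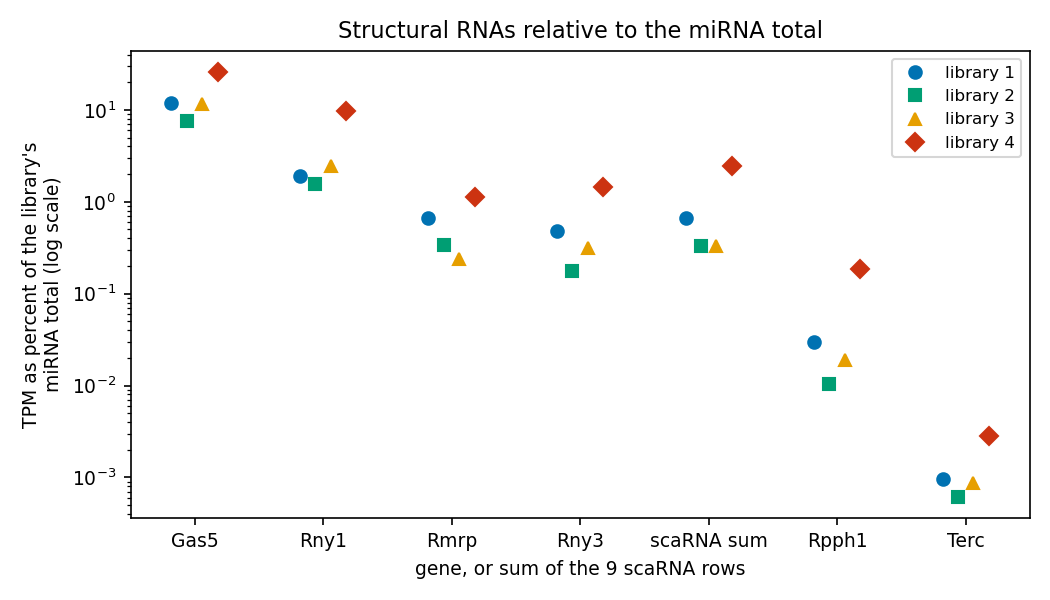
TPM of each structural RNA, of Gas5 and of the summed scaRNA rows as a percent of the library's miRNA total, on a log scale, for libraries 1 to 4 (points). Library 4 is the highest point in every column, at 9.68% for Rny1 and 0.186% for Rpph1.

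How even the abundant structural RNAs were between libraries depended on the scale. At a mean of 100 TPM or more there were 73 rows, which held Rny1, Rmrp and Rny3 and 68 miRNAs. In TPM, the coefficient of variation over 4 libraries was 30.7% for Rny1, 27.6% for Rmrp and 27.4% for Rny3, and all 3 were below every one of the 68 miRNA rows, whose median was 59.6% and whose lowest was 33.4%. The other rows that are not miRNAs were lower still, Gas5 at 22.8% and A230103J11Rik at 23.5%, so the low spread was shared by all 5 such rows. In that scale 62 of the 68 miRNAs had their lowest level in library 4. Without library 4 the RNAs themselves were little changed, at 32.6% for Rny1, 31.4% for Rmrp and 28.5% for Rny3. The median of the miRNA rows was then 37.7%, and 24, 24 and 18 miRNA rows varied less than Rny1, Rmrp and Rny3. Without library 1, 2 or 3, the count of the 3 RNAs below every miRNA was 2, 1 and 1. As a percent of the miRNA total, the same RNAs were among the more variable rows, at 99.0% for Rny1, 67.8% for Rmrp and 94.8% for Rny3, with 63, 57 and 62 of the 68 miRNA rows varying less. On that scale and without library 4, Rny1 was at 23.4%, while Rmrp was at 54.1% and Rny3 at 47.0% and the miRNA median was 34.5%.

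**Figure D4:**
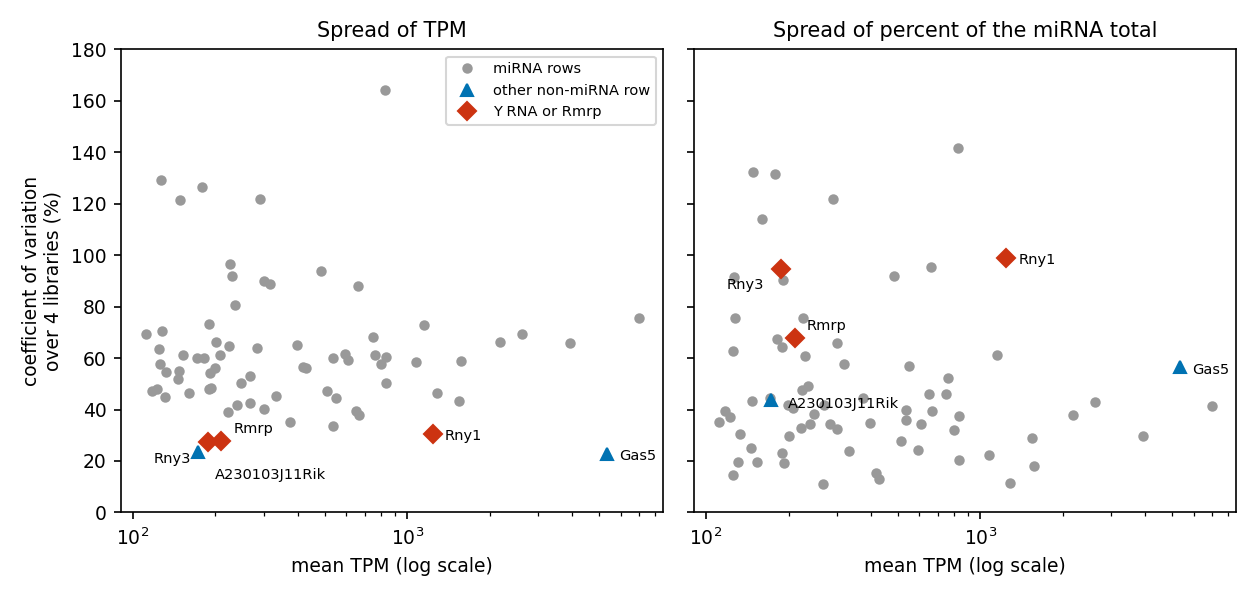
Coefficient of variation over 4 libraries against mean TPM (log scale) for the 73 rows averaging 100 TPM or more, in TPM (left) and as a percent of the miRNA total (right). Rny1, Rmrp and Rny3 (diamonds) and the other non-miRNA rows, Gas5 and A230103J11Rik (triangles), lie below all miRNA rows (grey) on the left. The diamonds are at 27.4% to 30.7% there and higher on the right, at 67.8% to 99.0%.

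The rows with the most similar profile over the 4 libraries were sought among 70 other rows averaging 100 TPM or more, by the root mean square difference of centred log2(TPM + 1). For Rny1 these were Mir19a at 0.32, Gas5 at 0.45 and Mir126a at 0.55, beside a median of 1.15 over all candidates. Mir19a was at 67.7, 135, 204 and 236 TPM in libraries 1 to 4 and so was high in the same libraries as Rny1. For Rmrp they were Mir543 at 0.33, Mir409 at 0.39 and A230103J11Rik at 0.39, with a median of 1.00. Mir543 was at 719, 791, 289 and 397 TPM, low in libraries 3 and 4 like Rmrp. For Rny3 they were Gas5 at 0.49, Mir206 at 0.58 and A230103J11Rik at 0.60, with a median of 1.23. Among the structural RNAs, Rny1 and Rpph1 were equally near to Rny3, at 0.43 each, and Terc was at 0.37. For Rpph1 the nearest other row was Mir206, at 0.72. The profile of Terc is flattened by the pseudocount, and its nearest row, Gas5 at 0.24, is among the most even rows. Over 4 libraries such likeness is weak: with candidates down to a mean of 10 TPM, 2 of the 15 nearest rows stayed the same.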

How the data were processed

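Small RNA was sequenced from 4 libraries of 1 group. Per the labels' protocols, sorted cells were lysed in QIAzol, total RNA was taken with a miRNeasy Micro kit and libraries were made with a NEBNext small RNA kit. The authors deposited TPM per Entrez gene and library. Per the submitters' processing notes, build mm10 (GRCm38) and the tool limma belong to their pipeline (the aligner and counter were not given in sources used here). Of 2976 rows, 2541 matched RefSeq GRCm38.p6 by gene ID; 643 were miRNA genes.

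For all nonzero miRNA values and all 5 RNAs, the product of TPM and RefSeq length fell on whole steps of a single size within each library (tolerance 0.01), and the step was taken as 1 read. This step was tested on simulated data. The scaling includes genes not used here, so TPM and percent of the miRNA total were both used. With 1 group of libraries, and RNAs chosen with their levels known, no comparison was tested, no p-value was computed and no count model was fitted. Dixon's gap limit served only as a screen for a library that stands apart. The 5 RNAs and the lists of other genes were chosen with earlier results of these data known. Named rows were drawn from the 5 RNAs, the 3 rows most alike to each, and the listed genes. Listed genes needed a mean of at least 1 TPM, with at most 4 per list, and not every eligible row is named. Rprl1, Rprl2, Bc1 and Mir429 were named after their values were seen. Alternatives covered the pseudocount (1 TPM in the values given), length scaling, the denominator, the detection threshold and leaving out each library. Similar genes were found with blastn 2.17.0 and stems with RNAfold 2.7.2. Other tools were numpy 2.4.6 and pandas 2.3.3 under Python 3.11.15, scipy 1.17.1, and matplotlib 3.10.9 for figures.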

Additional observations from a re-analysis of the deposited data

Results flagged for a closer look

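In 18 sets of 4 library values (TPM, percent of the miRNA total and log2 ratios), Dixon's gap limit (95% level), used as a screen on values already known, marked 1 library in 5, and it was library 4 each time. For normal values chance marks about 1 in 20 sets, but these sets overlap, so the 5 are not compared with that rate. Of the 5, 4 share the low miRNA total of library 4, 16399 TPM against 42494 to 65478 TPM, so they are not separate observations. The marked values relative to the miRNA total were 9.68% for Rny1, 0.186% for Rpph1, 0.00285% for Terc and 12.5% for the summed RNAs, each far above the other libraries. The log2 ratio of Rny3 to Rpph1 was 2.92 in library 4 and 3.90, 3.89 and 3.96 in libraries 1 to 3, so Rpph1 was high beside Rny3 there as well, in a ratio that does not involve the miRNA total.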

How the results depend on the processing

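No paired analysis was possible because the labels give 1 group. With reads not divided by length, Rmrp was at 2.00%, Rpph1 at 0.241% and Terc at 0.00639% of the miRNA total. The log2 ratios were then 1.23 for Rny1/Rmrp, 1.62 for Rmrp/Rny3 and 2.09 for Rny3/Rpph1. These shifts follow from the longer RNAs collecting more reads for the same TPM. For Rpph1/Terc the log2 ratio was 4.55, with 1 read added in place of 1 TPM, although Terc is the longer RNA. Without a pseudocount, Rpph1 was 25.9, 13.8, 17.6 and 53.3 times Terc in reads in libraries 1 to 4. In TPM this ratio was 31.7, 16.9, 21.5 and 65.1 times. A pseudocount of 10 TPM gave 3.00 for Rny3/Rpph1 and 1.20 for Rpph1/Terc, and 0.1 TPM gave 4.60 for the latter. Leaving out 1 library gave 2.74% to 6.20% of the miRNA total for the summed RNAs, 1.98% to 4.69% for Rny1, 0.324% to 0.746% for Rny3, 0.416% to 0.715% for Rmrp, 0.0198% to 0.0781% for Rpph1 and 0.000814% to 0.00156% for Terc, the lowest in each case without library 4, and -0.087 to 0.36 for Rmrp/Rny3, the only sign that reversed. Detected rows numbered 559 above 0 and 122 at 10 TPM in place of 229, and miRNA rows 113 at 10 TPM in place of 213. The number of the 3 abundant RNAs that varied less than every miRNA was 0 to 2 with 1 library left out, and 0 relative to the miRNA total, with or without library 4 (alternatives chosen after the data were seen). Counts of 20 to 41 reads limit Terc.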

Other observations

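Of the other small structural RNAs sought, Vaultrc5, the RNA of the vault particle and like the Y RNAs a product of RNA polymerase III, was at 0.669, 0.606, 1.30 and 4.76 TPM in libraries 1 to 4, again highest in library 4. Bc1, a neuronal RNA of the same polymerase, was at 0.0762, 0.158, 0.102 and 0 TPM. In TPM, 7 of the 9 scaRNA rows were highest in library 4. The highest scaRNA rows by mean were Scarna17, Scarna2, Scarna3a and Scarna9. Scarna2 was at 80.4, 58.5, 42.0 and 49.6 TPM, highest in library 1 and lowest in library 3, the same order of libraries as Rmrp. Scarna3a was at 47.8, 29.6, 48.9 and 95.8 TPM, lowest in library 2 and highest in library 4 as Rny3 and Rpph1 were. Scarna17 was at 92.6, 82.2, 62.3 and 113 TPM and Scarna9 at 32.3, 25.8, 26.1 and 30.9 TPM.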
